A study of Caenorhabditis elegans with 12 samples.

Results

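The genes described here are 9 components of the engine that drives cells through the division cycle, out of 46711 gene rows shared by both count tables. They were chosen by name and are the cyclin-dependent kinase (Cdk) genes cdk-1, cdk-2 and cdk-4, the cyclin genes cyd-1, cye-1, cya-1, cyb-1 and cyb-3, and the Cdk inhibitor gene cki-1. All 9 had a row in both tables. Ribosome footprints, the short mRNA pieces shielded by translating ribosomes, were counted in 12 libraries of whole Caenorhabditis elegans at mid L4, the last larval stage, after 45 h of feeding at 20 °C. Each of 4 strains was represented by 3 libraries, lettered A to C.

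let-7 is a microRNA that times the larval-to-adult transition, and lin-41 is its best known target in the worm. The let-7 U13A mutant carried let-7(ma432) with lin-41(tn1541ma480), and its labels describe effects downstream of lin-41 as excluded. The control of that mutant carried lin-41(tn1541), so the lin-41 allele as well as the let-7 allele differed within this pair. The let-7 U18A mutant carried let-7(ma435) with maIs105, and its control carried maIs105 alone, a transgene known as a col-19 reporter. All libraries came from whole animals, so footprints of dividing germ cells, dividing somatic cells and cells that no longer divide were mixed. In such bulk samples, fewer cells of a type and less RNA or less translation per cell cannot be told apart.

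Cdks are kinases that act only when bound to a cyclin. Cyclin D with CDK-4 drives progress through G1, cyclin E with CDK-2 drives entry into S phase, and cyclins A and B with CDK-1 drive mitosis. CKI-1, a relative of mammalian p27, holds cells in G1 and is needed for the timed arrest of vulval precursor, seam and other epidermal lineages. At the L4 stage most of the remaining divisions take place in the germ line, where cyclin E is also made outside S phase, and oocytes store cyclin B mRNA for the embryo.

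Total counts ranged from 8405704 to 44950649 per library, and counts of replicates were more apart than sampling noise (chi-square over degrees of freedom from 5.83 to 39.2). Depth did not overlap between mutant and control in either pair. It was 8405704 to 12726449 in the control for U13A against 13359763 to 26975815 in its mutant. In the U18A pair it was 21138669 to 44950649 in the control against 9447942 to 17453345 in the mutant. The row of let-7 held 0 counts in every library, and the alleles could not be checked from counts per gene. lin-41 rose in the let-7 U18A mutant (log2 fold change 0.54, edgeR adjusted p 0.000770, SE 0.08) and had a log2 fold change of 0.29 in the U13A pair (edgeR adjusted p 0.165, SE 0.11). Markers of the germ line, oocytes, sperm, epidermis, vulva, intestine and muscle were read, except that elt-5, 1 of 12 names of the epidermis and seam list, matched no row. No matched marker of these lists was at 0 in all 12 libraries. Levels are given as CPM, counts scaled to library size with TMM factors over the 12 libraries. Fold changes within a pair come from a fit of that pair's own 6 libraries.

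Read per kilobase of the longest annotated coding sequence, the 9 genes spanned a wide range of levels. cyb-1, a mitotic cyclin B, was highest, with a mean of 116 CPM per kb over the 12 libraries and a range from 87.7 to 138. cdk-1, the mitotic kinase (65.5 CPM per kb), and cyb-3, the cyclin B3 needed for chromosome segregation (59.7 CPM per kb), followed and overlapped each other. cye-1, cyclin E, stood alone at 36.8 CPM per kb, between 32.1 and 42.7 in single libraries. cki-1 (16.5), cdk-2 (14.99) and cya-1 (14.9 CPM per kb) could not be ranked against each other, since the ranges of their libraries overlapped. cdk-4 (2.12) and cyd-1 (0.647 CPM per kb) were lowest, and their ranges also touched. The G1 kinase and its cyclin were thus read from far fewer footprints than the S-phase and mitotic genes, between 9 and 103 counts per library for cdk-4 and between 4 and 66 for cyd-1.

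**Figure D1:**
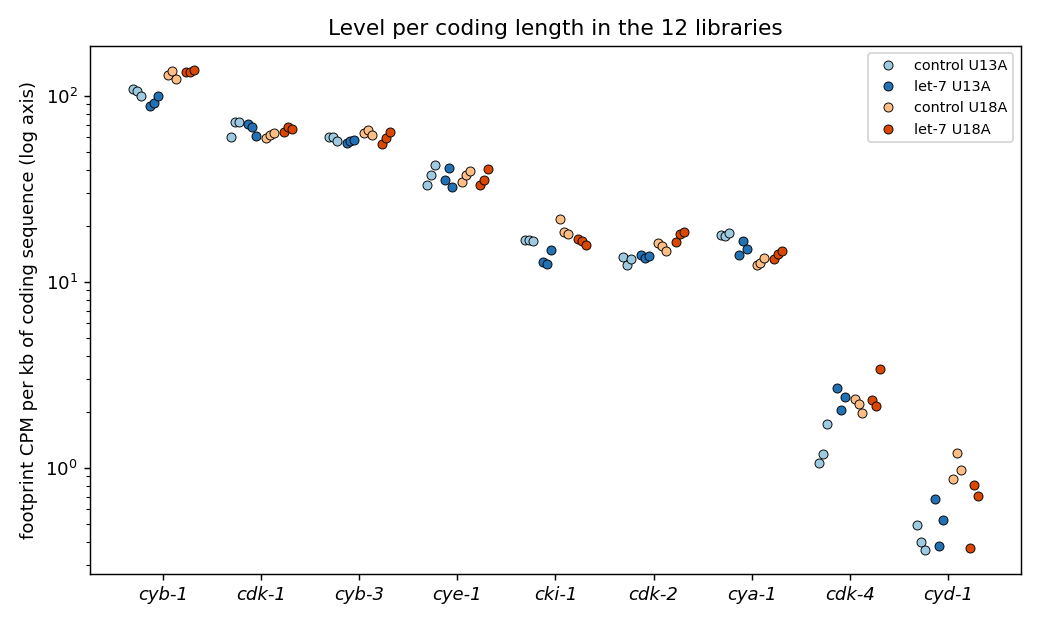
Footprint CPM per kb of coding sequence, on a log axis, for each of the 9 genes, with 1 point per library coloured by strain. cyb-1 lies at the top with a mean of 116 and cyd-1 at the bottom with a mean of 0.647, with the 12 libraries of cyb-3 closest together.

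In neither let-7 mutant did any of these genes pass the threshold against its own control. In the U13A pair, 0 of the 8 genes tested passed (edgeR's quasi-likelihood F test, Benjamini-Hochberg adjusted p under 0.05), where 5.64% of all 12874 genes tested did. cyd-1 was too low to be tested there. In the U18A pair 0 of 9 passed, where 10.9% of 13614 genes did. DESeq2 also called 0 in both pairs. At an unadjusted p under 0.05 there were 3 genes in the U13A pair (cdk-4, cya-1 and cki-1), against 18.3% of all genes, and 1 for U18A (cyd-1), against 22.9%. The median absolute log2 fold change was 0.13 in both pairs for these genes, and 0.16 and 0.14 for all genes tested. A p above the threshold does not show that a gene stayed the same, so the intervals are given below.

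The number of genes behind these percentages rested in part on single libraries. It was 726 in the U13A pair, but 295 without let-7 U13A replicate A and 354 without its control's replicate B. It was 1478 in the U18A pair, but 917 without let-7 U18A replicate B. The count called among the cyclins, Cdks and cki-1 was 0 in each of these fits.

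Among the G1 genes, cdk-4 (chromosome X, 13515856 to 13518911, minus strand; WBcel235) encodes the partner of cyclin D. It stood at 1.08, 1.22 and 1.76 CPM in the control for U13A and at 2.76, 2.101 and 2.48 CPM in the let-7 U13A mutant. All mutant libraries lay above all control libraries, which was true in that direction of 11.3% of all genes, and the log2 fold change of 0.78 (95% interval 0.22 to 1.35) did not pass (edgeR adjusted p 0.112). The control held only 9, 15 and 24 counts. After thinning all libraries of the pair to equal depth in a single random draw, the value was 1.17 and passed (edgeR adjusted p 0.0374). Over all alternatives run the adjusted p ran from 0.0374 to 0.309.

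In the U18A pair cdk-4 was 2.40, 2.27 and 2.01 CPM in the control and 2.38, 2.201 and 3.49 CPM in the mutant. These ranges overlapped, and 1 mutant library, replicate C, was high. The log2 fold change was 0.31 (95% interval -0.14 to 0.76, edgeR adjusted p 0.433), and 0.028 without that library (adjusted p 0.971). By strain mean the order was let-7 U18A, let-7 U13A, control for U18A and control for U13A, and only the last was separated from its neighbour.

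cyd-1 (chromosome II, 12980591 to 12993117, plus strand), the single cyclin D gene, had 5, 6 and 6 counts in the control for U13A and 11, 13 and 11 in the let-7 U13A mutant. Scaled for depth, the levels were 0.601, 0.486 and 0.441 CPM against 0.822, 0.463 and 0.634 CPM and overlapped. In the fit over all 12 libraries, where it was tested, the log2 fold change in this pair was 0.28 (95% interval -0.58 to 1.13, edgeR adjusted p 0.786). cyd-1 was 1.06, 1.45 and 1.18 CPM in the control for U18A and 0.452, 0.986 and 0.857 CPM in the let-7 U18A mutant. The mutant was lower in all libraries, as were 15.6% of all genes, with a log2 fold change of -0.65 (95% interval -1.296 to -0.01) that did not pass (edgeR adjusted p 0.214). Replicate A of the mutant rested on 4 counts.

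Of the S-phase genes, cye-1 (chromosome I, 6780799 to 6784397, plus strand) was the most even of all in its strain means. It was read at 52.1, 59.1 and 67.1 CPM in the control for U13A, at 55.4, 64.4 and 50.5 CPM in the let-7 U13A mutant, at 54.1, 58.8 and 62.2 CPM in the control for U18A and at 52.1, 55.5 and 63.4 CPM in the let-7 U18A mutant. Every strain overlapped every neighbour in the order of means, which ran only from 56.8 to 59.4 CPM. The log2 fold change was -0.07 for U13A (95% interval -0.34 to 0.19, edgeR adjusted p 0.834) and -0.04 for U18A (95% interval -0.23 to 0.15, edgeR adjusted p 0.868). Its sign changed in both pairs with the library left out.

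cdk-2 (chromosome I, 3410013 to 3416368, plus strand), the kinase partner of cyclin E, overlaps the antisense gene anr-45 and the non-coding gene K03E5.9, which both held 0 counts. It was 13.8, 12.5 and 13.4 CPM in the control for U13A and 14.2, 13.6 and 14.01 CPM in its mutant, with a log2 fold change of 0.07 (95% interval -0.19 to 0.33, edgeR adjusted p 0.840). In the U18A pair it was 16.4, 15.8 and 14.9 CPM in the control and 16.6, 18.4 and 18.9 CPM in the mutant. All mutant libraries there were higher, as for 12.1% of all genes, and the log2 fold change of 0.20 (95% interval -0.01 to 0.41) did not pass (edgeR adjusted p 0.243). All 6 libraries of the U18A pair read cdk-2 above all 6 of the U13A pair, as for 5.14% of 13597 genes, while 5.51% were separated the other way. Of the 9 genes, cdk-2 and cyb-1 were separated like this.

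Of the mitotic genes, cdk-1 (chromosome III, 9747472 to 9748852, plus strand) was 59.8, 72.4 and 71.6 CPM in the control for U13A and 70.2, 67.8 and 60.5 CPM in the mutant. It was 59.2, 61.0 and 63.0 CPM in the control for U18A and 63.3, 67.5 and 66.1 CPM in that mutant. The U13A libraries of both strains were intermixed (log2 fold change -0.05, 95% interval -0.29 to 0.19, edgeR adjusted p 0.890). In the U18A pair all mutant libraries were higher on this scale by a small margin, but not with the scaling of the pair alone, and the log2 fold change was 0.10 (95% interval -0.06 to 0.25, edgeR adjusted p 0.482).

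cyb-3 (chromosome V, 15395696 to 15397353, plus strand) had the narrowest range of the 9 genes over the 12 libraries, with the highest 1.18 times the lowest on the per-kb scale. It was 69.0, 69.7 and 66.3 CPM in the control for U13A, 64.2, 65.8 and 66.7 CPM in the let-7 U13A mutant, 73.2, 75.3 and 71.0 CPM in the control for U18A and 63.9, 68.4 and 73.7 CPM in the let-7 U18A mutant. All neighbouring strains overlapped. The log2 fold changes were -0.07 (95% interval -0.28 to 0.14, edgeR adjusted p 0.798) and -0.09 (95% interval -0.26 to 0.07, edgeR adjusted p 0.538).

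cyb-1 (chromosome IV, 10735216 to 10737177, plus strand) was apart between the backgrounds. It was 118, 115 and 108 CPM in the control for U13A and 95.02, 98.7 and 108 CPM in the mutant, while it was 140, 146 and 133 CPM in the control for U18A and 146, 145 and 149 CPM in the mutant. All 6 libraries of the U18A pair lay above the 6 of the U13A pair, again as for 5.14% of genes. Within pairs the log2 fold changes were -0.18 (95% interval -0.40 to 0.04, edgeR adjusted p 0.386) and 0.06 (95% interval -0.09 to 0.21, edgeR adjusted p 0.687).

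cya-1 (chromosome III, 9106699 to 9109272, minus strand), cyclin A, was higher, not lower, in the control for U13A than in the control for U18A. It was 25.9, 25.8 and 26.5 CPM in the control for U13A and 20.4, 23.97 and 21.8 CPM in the mutant, with the mutant lower in all libraries, as were 11.3% of all genes. The log2 fold change of -0.24 (95% interval -0.48 to -0.001) did not pass (edgeR adjusted p 0.270). In the U18A pair it was 17.9, 18.3 and 19.6 CPM in the control and 19.2, 20.5 and 21.2 CPM in the mutant, overlapping, with a log2 fold change of 0.13 (95% interval -0.07 to 0.32, edgeR adjusted p 0.474).

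Of the 9 genes, only cki-1 (chromosome II, 7811240 to 7812105, plus strand) was lower in all mutant libraries of both pairs. It was 9.26, 9.24 and 9.19 CPM in the control for U13A and 7.02, 6.84 and 8.19 CPM in the let-7 U13A mutant. The log2 fold change was -0.34 (SE 0.14, 95% interval -0.64 to -0.03, edgeR adjusted p 0.214). It was 12.0, 10.2 and 9.97 CPM in the control for U18A and 9.39, 9.18 and 8.75 CPM in the let-7 U18A mutant, a log2 fold change of -0.24 (SE 0.12, 95% interval -0.49 to 0.01, edgeR adjusted p 0.246). Libraries lower in every mutant replicate were found for 11.3% (U13A) and 15.6% (U18A) of genes, each pair taken alone. The share of genes lower in both pairs at once was not computed, so how unusual cki-1 is in this is not known. Neither log2 fold change of cki-1 passed under any alternative run, with adjusted p from 0.120 to 0.461 for U13A and from 0.142 to 0.529 for U18A, and the value stayed below 0 in all of them. The control for U13A varied very little (SD 0.0367 CPM, n = 3) although its libraries held only 77, 114 and 125 counts, a spread narrower than the counting error of such counts. cki-2, a second Cdk inhibitor gene downstream of it on the same strand, had log2 fold changes of -0.31 (edgeR adjusted p 0.113) and 0.07 (edgeR adjusted p 0.742). cki-2 was higher in the control for U13A than in the control for U18A (log2 fold change 0.29, edgeR adjusted p 0.0257). Of 13 tested Cdk activators and inhibitors, 3 were called higher and 1 lower in that comparison.

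**Figure D2:**
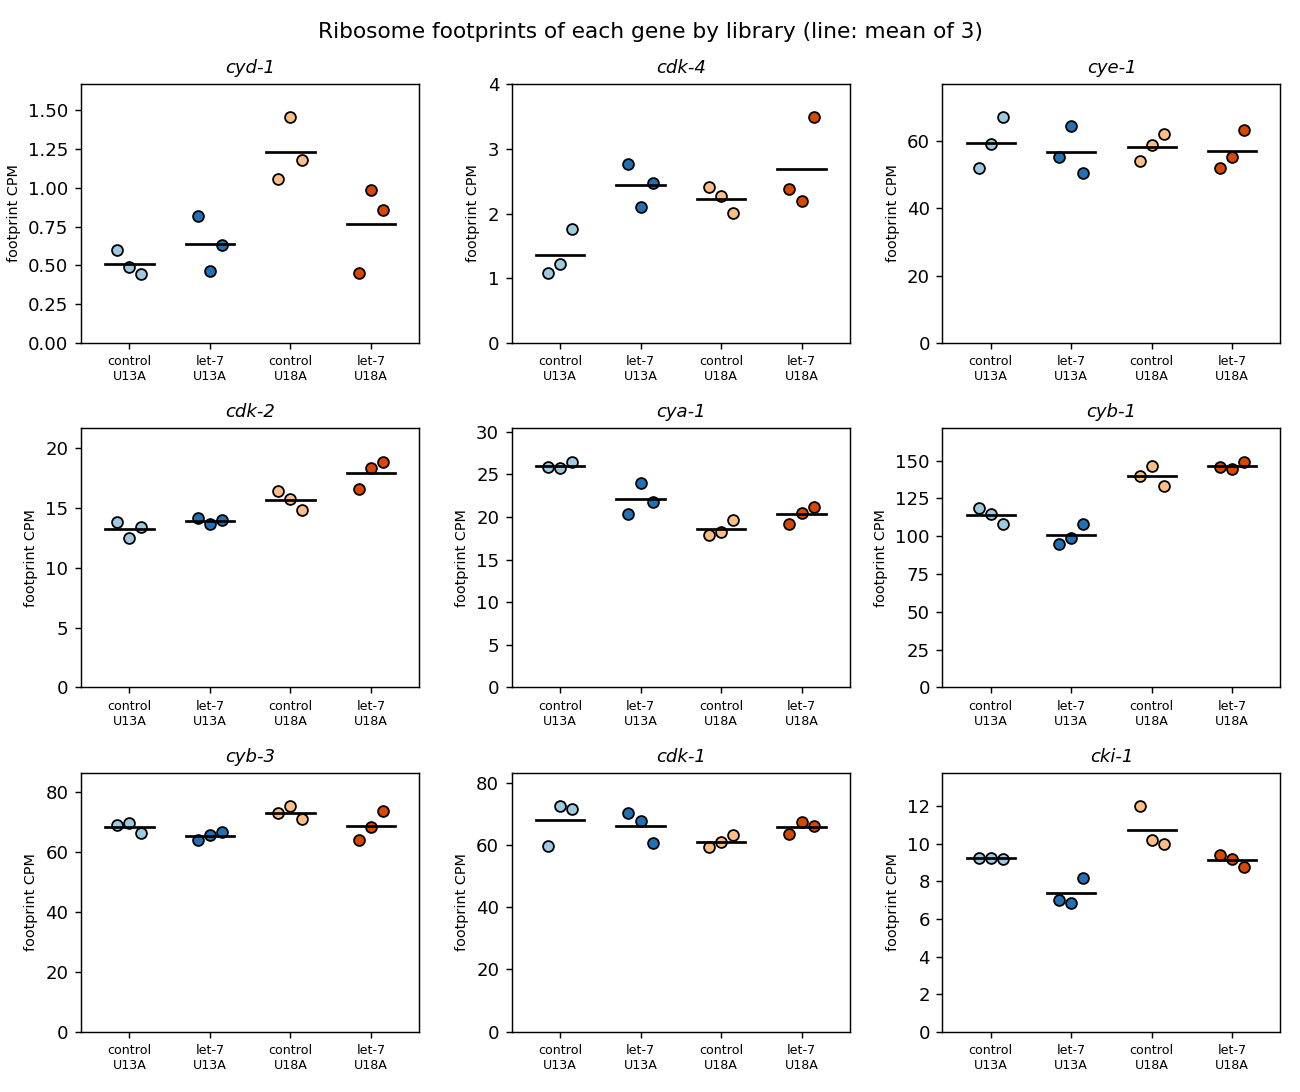
Footprint CPM of the 9 genes in each library, with a line at the mean of 3 libraries and axes that start at 0. The cye-1 means run from 56.8 to 59.4 CPM, cyb-1 is higher in both strains of the U18A pair, and the cki-1 points of each mutant lie below those of its control.

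Ratios of per-kb levels within a library were chosen after the values had been seen and are given without a test. The ratio of cki-1 to cdk-2 was 1.28 ± 0.0677 (SD, n = 3) in the control for U13A and 0.968 ± 0.0918 in the mutant, and 1.25 ± 0.0790 in the control for U18A and 0.936 ± 0.0940 in the mutant. Mutants and controls did not overlap in either pair, with mutant libraries between 0.852 and 1.07 and control libraries between 1.19 and 1.36. The ratio of cki-1 to cye-1 overlapped within both pairs, between 0.302 and 0.630 over all libraries. cyb-1 to cyb-3 was apart in both pairs but in opposite directions, 1.64 in the let-7 U13A mutant against 1.77 in its control and 2.28 in the let-7 U18A mutant against 2.04. Of the 36 ratios between any 2 of the 9 genes, 16 did not overlap within the U13A pair and 16 within the U18A pair. In both pairs and in the same direction this held for 4 ratios, those of cki-1 to cdk-2, cdk-4 and cyb-1 and that of cdk-2 to cyb-3, and in opposite directions for 2. Ratios that share a gene are not independent of each other. The share among ratios of other genes was not computed, so these counts have no background. The summed mitotic cyclins to cdk-1 ran from 2.50 to 3.35 by strain mean. Together the 9 genes took between 0.0313% and 0.0412% of the counts of a library.

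Whether the changes of both mutants differed was tested as a contrast over the 12 libraries. Of the 9 genes 0 passed in edgeR, where 5.58% of 13597 genes did, and DESeq2 also called 0. At an unadjusted p under 0.05 there were 2, cya-1 and cyb-1, against 17.2% of all genes. cya-1 had a log2 difference (U13A change minus U18A change) of -0.36 (95% interval -0.64 to -0.09, edgeR adjusted p 0.128) and cyb-1 one of -0.24 (95% interval -0.48 to -0.01, edgeR adjusted p 0.274). For cki-1 the difference was -0.10 (95% interval -0.46 to 0.26, edgeR adjusted p 0.843), and for cyd-1 it was 0.92 with an interval from -0.13 to 1.97 (edgeR adjusted p 0.377).

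The control strains, neither of which carries a let-7 change, differed from each other in 3 of the 9 genes, where 25% of 13597 genes differed in either direction. They differ in strain, in the lin-41 allele, in maIs105 and in the table they were deposited in, and these cannot be told apart. lin-41 itself was lower in the control for U13A than in the control for U18A (log2 fold change -0.99, edgeR adjusted p 1.41e-06). It was also lower in the let-7 U13A mutant than in the let-7 U18A mutant (log2 fold change -1.23, edgeR adjusted p 1.19e-07). In the control for U13A relative to the control for U18A, cya-1 was higher by a log2 fold change of 0.48 (edgeR adjusted p 0.000911, SE 0.09; 26.0 ± 0.379 against 18.6 ± 0.902 CPM, SD, n = 3 each). This held under every alternative run, with values from 0.46 to 0.52. cya-1 shares 107 exon bases with dos-1 on the other strand. dos-1 held 41 to 287 counts and had a log2 fold change in the other direction, -0.53 (edgeR adjusted p 0.0809).

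cyb-1 was lower in the control for U13A by a log2 fold change of -0.30 (edgeR adjusted p 0.0101, SE 0.08; 114 ± 5.36 against 140 ± 6.63 CPM). Its call was lost without control for U13A replicate C (adjusted p 0.0559) and without control for U18A replicate B (adjusted p 0.0533). cyd-1 was lower by -1.33 (edgeR adjusted p 0.00805, SE 0.34; 0.510 ± 0.0827 against 1.23 ± 0.204 CPM), a call lost without control for U13A replicate C (adjusted p 0.0511). After thinning, or with at least 10 counts asked of every library, cyd-1 was too low to be tested. cdk-4 had a log2 fold change of -0.67 (edgeR adjusted p 0.0572) and passed without that same library (-0.93, adjusted p 0.0426) and without let-7 U18A replicate C (adjusted p 0.0409). At an unadjusted p under 0.05 there were 5 of the 9, against 37.1% of all genes. Groups did not overlap for 7 of the 9 genes, 1 higher and 6 lower, against 19.3% and 21.9% of all genes.

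Cell type markers also differed between the control strains. In the control for U13A, 11 of 15 oocyte markers (median log2 fold change -1.17), 9 of 10 molting genes (median -1.89), 5 of 10 epidermis and seam markers (median -0.61) and 4 of 8 vulva markers were lower. Of the germline markers 9 of 18 were higher and 1 lower (median 0.23). The summed oocyte level ran from 646 to 1065 CPM against 1140 to 1353 in the control for U18A, and the summed germline level from 7052 to 7800 against 5821 to 6369 CPM. Of the sperm markers 2 of 10 were higher, of the vulva markers 1 was higher, of the intestine markers 1 of 9 changed in each direction, and of the muscle markers 0 of 8 were called (4 at an unadjusted p under 0.05). The part of stage or of these cell types in the values of cya-1, cyb-1 and cyd-1 was not tested.

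The mutant strains differed from each other in 2 of the 9 genes, both lower in the let-7 U13A mutant, where 9.39% of 13597 genes were lower and 18.4% differed in either direction. Over all genes 2506 differed, and 1641 without let-7 U13A replicate B. cyb-1 had a log2 fold change of -0.54 (edgeR adjusted p 0.000116, SE 0.08; 101 ± 6.89 against 147 ± 2.28 CPM, SD, n = 3 each) and passed under every alternative. cdk-2 had one of -0.37 (edgeR adjusted p 0.0128, SE 0.10; 13.9 ± 0.283 against 18.0 ± 1.17 CPM), lost without let-7 U18A replicate B (adjusted p 0.0533), without its replicate C (adjusted p 0.0593) and after thinning (adjusted p 0.137). cki-1 was 7.35 ± 0.733 against 9.11 ± 0.329 CPM, a log2 fold change of -0.31 (edgeR adjusted p 0.0967) that passed after thinning (-0.51, adjusted p 0.0197). cya-1, apart between the control strains, was not called in this comparison (0.12, 95% interval -0.08 to 0.32, edgeR adjusted p 0.412). Of the 9 genes 3 had an unadjusted p under 0.05, against 31.7% of all genes, and 3 did not overlap, each lower (17% of all genes were lower in this way and 17.4% higher).

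Beside cyb-1 and cdk-2, 13 of 15 oocyte markers were lower in the let-7 U13A mutant than in the let-7 U18A mutant (median log2 fold change -1.31), with a summed level from 884 to 1288 against 1876 to 2185 CPM. cyb-2.1 and cyb-2.2, relatives of cyb-1, were lower by a log2 fold change of -0.92 and -0.96 (edgeR adjusted p 0.00238 and 0.000435). Of the DNA replication genes 4 of 20 were lower, rnr-1 among them (-0.32, edgeR adjusted p 0.00830). Of the 18 germline markers 1 was higher and 1 lower (median 0.05), with summed levels that overlapped. Of the molting genes 3 of 10 were lower, and of the epidermis and seam markers 2 of 10 were higher. Of the vulva markers 2 of 8 and of the mitosis genes 1 of 20 were lower. Of the sperm markers 1 of 10 and of the intestine markers 1 of 9 were higher, and of the muscle markers 0 of 8 were called. The part of oocytes or of stage in the values of cyb-1 and cdk-2 was not tested.

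The rest of the cell-cycle machinery was described from fixed lists, by counts and medians only. Of 16 other cyclins and Cdks, 0 were called for U13A (median log2 fold change -0.04; 0 at an unadjusted p under 0.05) and 2 for U18A (median -0.01), against medians of -0.004 and -0.005 over all genes. The 2 were cyb-2.1 and cyb-2.2, close relatives of cyb-1 whose reads may be shared between them. cyb-2.2 rose by 0.69 on the log2 scale (edgeR adjusted p 0.00396, SE 0.14) and cyb-2.1 by 0.68 (edgeR adjusted p 0.0172, SE 0.17). Of 13 tested Cdk activators and inhibitors, such as the cdc-25 phosphatases, wee-1.3 and lin-35, the worm Rb, 0 were called in either pair (2 and 0 at an unadjusted p under 0.05), with medians of -0.10 and 0.01. Of the 12 genes of the anaphase-promoting complex and its activator fzy-1, which mark cyclins for destruction, 0 were called in either pair (2 and 1 at an unadjusted p under 0.05), with medians of -0.07 and 0.10.

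Of 20 tested DNA replication genes 0 were called for U13A (1 at an unadjusted p under 0.05) and 1 for U18A, where mcm-3, a subunit of the replicative helicase, rose by 0.26 (edgeR adjusted p 0.0219, SE 0.07). Of the mitosis genes 0 of 20 were called for U13A (1 at an unadjusted p under 0.05) and 1 of 21 for U18A. That gene was ify-1, the worm securin, which rose by 0.28 (edgeR adjusted p 0.0447, SE 0.08). The medians of both lists stayed between -0.09 and 0.07.

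Markers of cell types are given beside these genes. Of 18 germline markers 0 were called for U13A (2 at an unadjusted p under 0.05) and 2 for U18A, both higher (mex-5 by 0.64, edgeR adjusted p 0.000255, and car-1 by 0.29, edgeR adjusted p 0.0227), with medians of -0.09 and 0.12. Of 15 oocyte markers, 10 were higher in the U13A mutant, 13 in the U18A mutant, with medians of 0.75 and 0.95. oma-2, a regulator of oocyte maturation, rose by 1.95 in the U13A pair (edgeR adjusted p 0.00642), and cbd-1, an eggshell protein, by 1.65 (edgeR adjusted p 0.0180) and for U18A by 1.32 (edgeR adjusted p 0.000115). The summed oocyte marker level ran from 646 to 1065 CPM in the control for U13A and from 884 to 1288 in its mutant, and from 1140 to 1353 and 1876 to 2185 CPM in the U18A pair. cyb-2.1 and cyb-2.2 rose beside the oocyte markers in the U18A pair and had log2 fold changes of -0.05 and 0.05, not called, in the U13A pair. The part of oocytes in these values was not tested.

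Among somatic markers, the vulva list had 0 of 7 called for U13A (1 at an unadjusted p under 0.05) and 1 of 9 for U18A, lower (medians -0.29 and -0.21). The summed vulva level ran from 79.0 to 86.2 CPM in the control for U13A against 67.5 to 71.9 in its mutant. In the U18A pair it ran from 77.6 to 80.5 against 74.1 to 81.3 CPM and overlapped. The epidermis and seam list had 2 of 9 called higher in the U13A pair and 4 of 10 lower in the U18A pair. The molting list had 2 of 10 higher in the U13A pair and 9 of 10 lower in the U18A pair, with medians of 0.41 and -1.03. Of the sperm markers 1 of 10 was lower in each pair, spe-44. Of the intestine markers 0 of 9 were called for U13A (2 at an unadjusted p under 0.05) and 1 in each direction for U18A, and of the 8 muscle markers 0 passed in either, also unadjusted. The part of stage or of these cell types in the values of cki-1 was not tested.

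**Figure D3:**
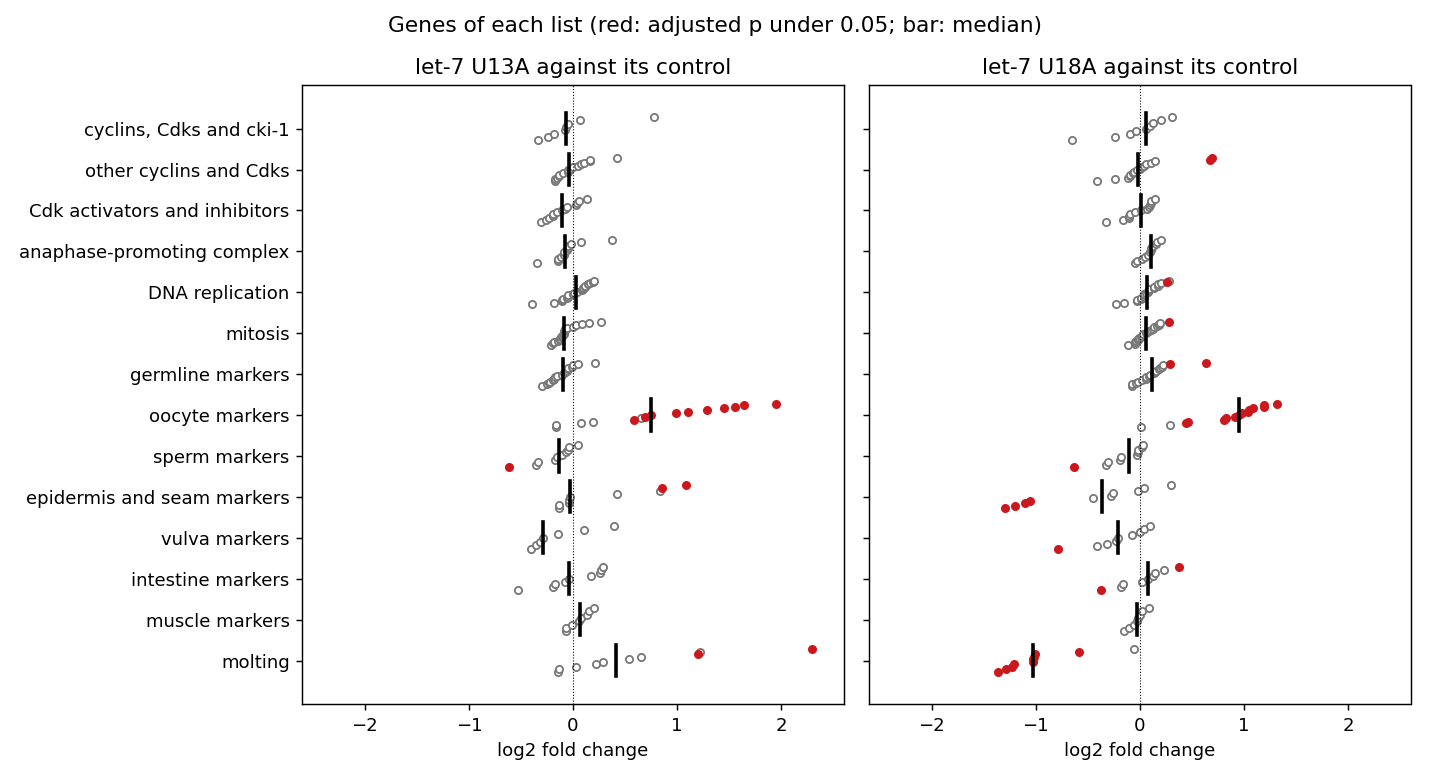
Log2 fold change of each tested gene of the 9 cyclins, Cdks and cki-1 and of each fixed list, in the U13A pair (left) and the U18A pair (right), with a bar at the list median and red points for an edgeR adjusted p under 0.05. The cell-cycle lists gather near 0, the oocyte markers have medians of 0.75 and 0.95, and the molting genes have medians of 0.41 and -1.03.

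Shared variation from library to library was described by correlation. After centring log2 CPM within each pair, the Pearson correlations among the 7 genes with at least 50 counts on average ran from -0.50 to 0.61 over the 12 libraries, with a median of 0.09 over 21 gene pairs. The highest was between cdk-1 and cye-1 (0.61), followed by cya-1 with cyb-1 (0.60), and the lowest between cdk-2 and cki-1 (-0.50). Libraries of a strain share that strain's difference from its partner, so these values are descriptions without a test. Among 10861 genes compared in this way, those most like cki-1 were R09A1.2 (r = 0.96), alg-4, which encodes an Argonaute of the sperm-producing germ line (0.95), and R12E2.7 (0.95). Those most like the mean of cdk-1, cya-1, cyb-1 and cyb-3 were H04D03.6 (0.94), rin-1 (0.92) and C08F8.3 (0.91). The genes named were picked as the highest among 10861 over only 12 libraries, and such picking alone favours high values.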

How the data were processed

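Ribosome footprints were measured in 12 libraries. The authors deposited raw counts per gene in 2 tables, each with 1 mutant and its control; cutadapt 1.9, Bowtie2 2.3.4.3 and build WBcel235 are named per the submitters' processing notes. The counting tool, the use of strand and the treatment of multi-mapping reads are not given in the sources used here, so overlapping genes can exchange reads. Nothing in the labels says that replicates came from separate cultures, so p-values measure the spread between these libraries. No batch is labelled.

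Each comparison was fitted on all genes in edgeR 4.0.16 (R 4.3.3) with filterByExpr, TMM scaling and a robust quasi-likelihood test, with a threshold of 0.05 on the p-value after Benjamini-Hochberg adjustment. Standard errors and 95% intervals were derived from the F statistic. With 3 libraries against 3 a permutation test could not go below 0.1, so none was run. Pairs were fitted on their 6 libraries, and other contrasts on all 12. Positions and coding lengths came from Ensembl release 115 of WBcel235. Likeness used log2 CPM with a prior count of 2. The tests of both pairs and of their difference were also run on simulated data, with an outcome not given here. The contrasts between the control strains and between the mutant strains were not run in this way.

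The 9 genes, the lists and the tests were chosen with earlier results of these data known. Besides the 9 genes, let-7 and lin-41, up to 3 called genes of each list with at least 50 counts and the 3 genes most alike could be named; cki-2, as the second Cdk inhibitor, and examples of uncalled lists were added. Alternatives were DESeq2 1.42.0, scaling by median of ratios (RLE) or upper quartile, leaving out the count filter or asking for at least 10 counts in each library, a replicate block from the letters, non-robust estimation, thinning to equal depth, all 12 libraries in one fit, and leaving out each library. Thinning was a single random draw, so its values also carry the noise of that draw.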

Additional observations from a re-analysis of the deposited data

Results flagged for a closer look

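None of the 9 genes passed the edgeR test of a difference between both changes (adjusted p from 0.128 to 0.953). The genes here were picked out from the lists because the contrast of both changes over 12 libraries passed; values are log2 differences, the U13A change minus the U18A change. Among molting genes, fbn-1 differed by 3.66, noah-2 by 2.52 and noah-1 by 2.44. Among epidermal markers, dpy-7 differed by 2.16, nhr-73 by 1.63 and rol-6 by 0.92. The intestinal gene ifb-2 differed by -0.54 and the germ granule gene pgl-3 by -0.42. The pairs differ in alleles, strain and table, which cannot be told apart.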

How the results depend on the processing

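The count of the 9 genes called stayed at 0 in both pairs and in their difference under the alternatives run, except 1 (cdk-4) in the U13A pair after thinning to equal depth. Leaving out single libraries gave 0 to 0 in these 3 comparisons, 2 to 4 between the control strains and 1 to 2 between the mutant strains. Over all genes it gave 295 to 849 for U13A, 917 to 1529 for U18A, 542 to 775 for their difference, 2339 to 3584 between the controls and 1641 to 2718 between the mutants. All 12 libraries in one fit gave 1131 genes in the U13A pair. Signs changed only for values that were not called. cye-1 became 0.022 in the U18A pair and cdk-2 0.019 in the difference after thinning, cdk-4 became 0.139 between the mutants after thinning, cdk-1 -0.013 there with upper-quartile scaling, and cye-1 0.002 there with no filter. Leaving out single libraries moved cdk-1 from -0.125 to 0.014 and cye-1 from -0.179 to 0.025 in the U13A pair, cye-1 from -0.125 to 0.027 in the U18A pair, cye-1 from -0.154 to 0.061 and cyb-3 from -0.025 to 0.08 in the difference, cye-1 from -0.067 to 0.115 between the controls, and cdk-1 from -0.029 to 0.069, cye-1 from -0.12 to 0.08 and cdk-4 from -0.338 to 0.078 between the mutants. The cause of these shifts was not tested. Replicate letters did not pair the U13A libraries, with same-letter correlations of deviations of -0.03, 0.02 and -0.36. The highest there were between unlike letters, mutant B with control C (0.38) and mutant C with control A (0.37). For U18A the same-letter values were 0.14, -0.01 and 0.13, and those of unlike letters ran from -0.14 to 0.02. These small values do not settle whether letters pair the U18A libraries. With the letter as a replicate block, 424 genes were called for U13A and 1701 for U18A, and 0 of the 9 in both. Depth limits cyd-1 and cdk-4, read from as few as 4 and 9 counts in a library.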
